A study of Caenorhabditis elegans with 2 samples.

Results

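The genes cux-7 and lig-4 of Caenorhabditis elegans point away from each other on chromosome III, with the gene C07H6.2 between them. The strongest binding site of the transcription factor FKH-4 in L1 larvae lies between the starts of cux-7 and lig-4. The 2 genes, of 19973 coding genes on the nuclear chromosomes, were selected on measured values, namely the signal of this peak, which ranked 1 of the 1189 peaks in the list of reproducible peaks (IDR list). Its rank and signal are therefore given as a description, with no test. The ChIP-seq data cover 2 samples of whole larvae, which are biological replicates 1 and 2 of a single group. Both come from the strain OP100 (unc-119(tm4063) III; wgIs100), in which the transgene wgIs100 expresses FKH-4 with a GFP-FLAG tag at its C-terminus. The animals were hermaphrodites, synchronised by bleaching and starvation as L1 larvae and collected 6 h later, and chromatin was precipitated with an antibody against GFP. Which promoter drives the transgene is not stated in the labels, and whole animals do not show in which cells FKH-4 was bound. No untagged or other control sample was analysed here, so no background level can be set beside these values.

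Forkhead proteins such as FKH-4 bind DNA through a winged-helix domain, usually at short A- and T-rich words related to TGTTTAC. DNA ligase IV, the product of lig-4, seals broken chromosome ends in non-homologous end joining, a repair route that needs no template and that is used in nondividing somatic cells. The reference annotation of RefSeq gives cux-7 the symbol akap-17A and describes its product as a protein with an RNA recognition motif, a fold that binds RNA. A peak near a gene start shows where the tagged protein was crosslinked to DNA, not that it changes the gene's transcription.

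The peak summit fell on chrIII:7520849-7520849 (ce11), in the short gap upstream of cux-7, and the bases around it hold an inverted pair of 1 word. That word is the most frequent run of 14 bases within 100 bp of the summits of the IDR list, where 35 peaks hold it without mismatch. It was taken from these same peaks, so its frequency among them is a description. The sequences below were read from the reference assembly on ce11, 5′ to 3′, with the word or its altered copy in capitals. They show the word itself, both arms at cux-7 (left arm on the plus strand, chrIII:7520808-7520829; right arm on the minus strand, chrIII:7520872-7520893), and the arms at Y56A3A.7 (chrIII:11946506-11946527 and chrIII:11946562-11946583) and F25H9.7 (chrV:13468333-13468354 and chrV:13468385-13468406), which are among the peaks most like this one.
exact copy of the word: TCCGAGAGGAGTAC
cux-7 left arm: gttgTCCGAGAGGAGTTCacca
cux-7 right arm: tttgTCCGAGTGGACTTCaaaa
Y56A3A.7 left arm: tttgTCTGAGAGGACTACactg
Y56A3A.7 right arm: attgTCCAGGAGGAGTACacgg
F25H9.7 left arm: ttttTCCGAGAGGGCTACacga
F25H9.7 right arm: tgagTCCGAGTGGAGTACacgc
Changes are counted from 1 at the 5′ end of the 14-base word, with the base of the word first. The left arm at cux-7 carried A13T only, and the right arm carried A7T, G11C and A13T. The cux-7 arms were identical to each other at 12 of 14 bases, and A13T was shared by both. At Y56A3A.7 the left arm carried C3T and G11C and the right arm G4A and A5G. At F25H9.7 the left arm carried A10G and G11C and the right arm A7T.

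The arms at cux-7 stood 50 bases apart, and the middle of the pair lay 1.5 bp from the summit. The left arm lies in the 5′ UTR of the longest cux-7 transcript, and the right arm lies in the 163 bp between the starts of cux-7 and C07H6.2 (chrIII:7520846-7521008, plus strand). That stretch is shown because it holds the summit, at its base 4, and the rest of the pair. Its capitals mark the right arm as read on the plus strand and a forkhead word.
intergenic stretch between the starts of cux-7 and C07H6.2: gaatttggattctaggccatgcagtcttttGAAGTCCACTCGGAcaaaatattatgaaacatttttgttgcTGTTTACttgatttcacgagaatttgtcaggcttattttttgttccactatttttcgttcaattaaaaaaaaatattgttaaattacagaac

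The order of genes around the summit differs from a simple cux-7 and lig-4 pair. cux-7 (WBGene00000854, chrIII:7518628-7520845) is transcribed from the minus strand, and its 3 annotated starts lie 4, 44 and 67 bp from the summit, each with the summit upstream. On the other side the first gene is C07H6.2 (WBGene00015579, chrIII:7521009-7521332, plus strand), described in RefSeq as an E3 ubiquitin-protein ligase, whose start lies 160 bp from the summit. lig-4 (WBGene00002986, chrIII:7521463-7524870, plus strand) starts 614 bp from the summit, and all of C07H6.2 lies in between, ending 130 bp before lig-4. The starts of cux-7 and lig-4 are 618 bp apart and point away from each other, so the genes are divergent as labelled, but C07H6.2 is the nearest divergent neighbour of cux-7. With a promoter window of 1000 bp upstream and 200 bp downstream, the summit was assigned to all 3 genes. With 500 bp upstream and 0 bp downstream it was assigned to cux-7 and C07H6.2, and lig-4 dropped out.

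Few peaks of the IDR list lay in the windows of 3 genes or as near to a coding start, while a place between divergent starts was less rare. The summit lay in the windows of 3 genes for 13 of 1189 peaks (1.09%), of 2 genes for 261 (22%), of 1 gene for 423 (35.6%) and of none for 492 (41.4%). A summit within 4 bp of the nearest coding start was seen for 9 peaks (0.757%), and the median distance was 479 bp. Peaks between divergent starts at most 1000 bp apart made up 208 of 1189 (17.5%, 95% exact binomial interval 15.4 to 19.8%), and 6 of the 20 strongest peaks lay in such a gap. Of the 5 peaks most like this one, 2 lay in such a gap. Of the 242 bp of the cux-7 peak, 116 bp lay in the 5′ UTR of the longest cux-7 transcript (chrIII:7520698-7520845) and 126 bp upstream of the gene. The other annotated cux-7 starts, 44 and 67 bp from the summit, also lie within the peak.

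The peak headed the list in each replicate. In the pooled list and in the IDR list its signal was 645 (chrIII:7520730-7520971), in replicate 1 it was 221 (chrIII:7520754-7520932, summit 7520852) and in replicate 2 it was 423 (chrIII:7520724-7520977, summit 7520851). It ranked 1 of 30000 peaks in the pooled list, 1 of 30000 in replicate 1 and 1 of 22442 in replicate 2. The signal is the authors' own value for each peak, on a scale that no source used here states, so levels are read only within a list. The replicate summits were 1 bp apart, against a median of 25 bp over the 1170 IDR peaks matched in both replicates, of which 72 (6.15%) were as close. The peak was 242 bp wide, and 53 of the IDR peaks (4.46%) were as narrow or narrower. The median of the IDR list was 396 bp, which is also its greatest width. The 5 next-strongest peaks were narrow too, each at most 251 bp wide, and their replicate summits were 0 to 11 bp apart.

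The lead over the next peak was small. The second-strongest peak had a signal of 613 in the pooled list, 216 in replicate 1 and 396 in replicate 2. The cux-7 peak exceeded it 1.053-fold, 1.021-fold and 1.069-fold, respectively. The peak lists hold 1 value per peak and replicate, so no error can be put on these ratios, and the order of the first 2 peaks rests on their being the same in both replicates. The step from the second to the third peak of each list was larger, at 1.185-fold in the pooled list, 1.134-fold in replicate 1 and 1.145-fold in replicate 2. Against the list medians the cux-7 peak was 31-fold higher in the pooled list, 17.7-fold in replicate 1 and 35.1-fold in replicate 2.

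**Figure D1:**
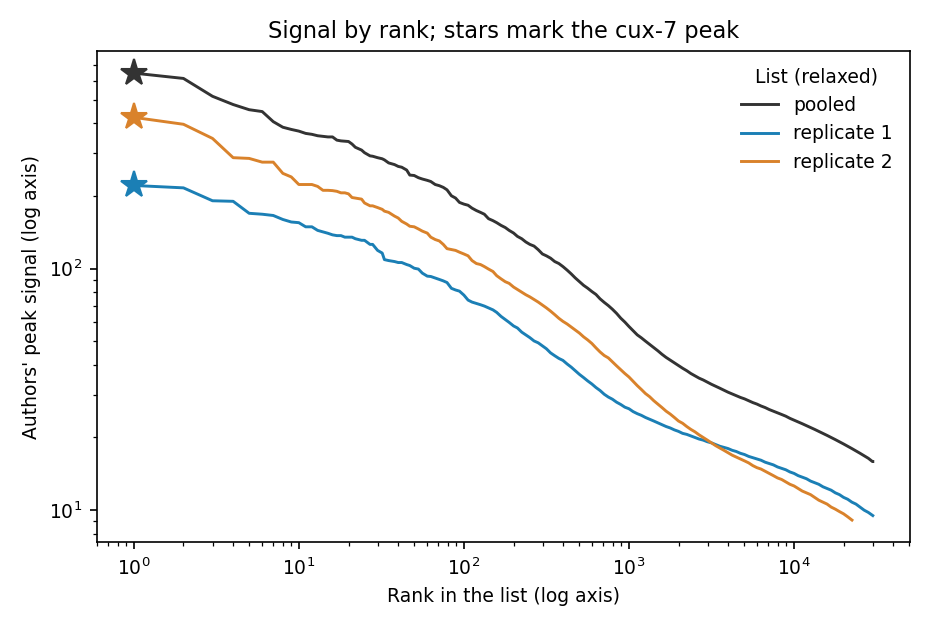
The authors' peak signal (log axis) is plotted against rank in the list (log axis) for the relaxed pooled, replicate 1 and replicate 2 lists, with a star for the cux-7 peak. The star stands at the head of each line, and the second peak follows within 1.053-fold, 1.021-fold and 1.069-fold.

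The 5 IDR peaks most like it, by the summed difference of ranks in the pooled list and both replicates, were the next 5 of the list. The peak 110 bp upstream of F56G4.6, which encodes a Rod_C domain protein, ranked 2 in all 3 lists. The peak in an intron of Y56A3A.7 ranked 3 in the pooled list, 6 in replicate 1 and 3 in replicate 2, with signals of 517, 168 and 346. RefSeq describes the Y56A3A.7 product as a cut-like homeobox protein. The peak nearest F58D12.3, a SWIB domain gene, lay 2611 bp upstream in intergenic sequence and ranked 4 in all 3 lists. The peak 254 bp upstream of W04C9.4, whose product is uncharacterised, ranked 5, 7 and 5 in the pooled list, replicate 1 and replicate 2. The peak 5 bp downstream of the start of F25H9.7, annotated as a succinate dehydrogenase assembly factor, ranked 6, 5 and 6. In all 20 strongest IDR peaks both replicate ranks were at most 100.

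**Figure D2:**
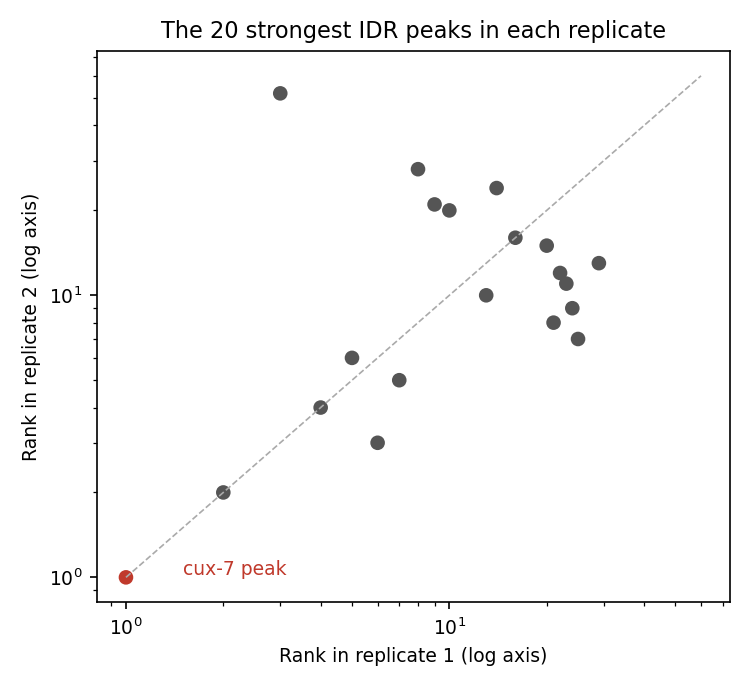
Each point is 1 of the 20 strongest IDR peaks, with its rank in replicate 1 on the x axis and in replicate 2 on the y axis (both log axes, dashed line at equal ranks). The cux-7 peak, in red, ranked 1 in both replicates.

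Weak peaks surrounded the site, and none of them was in the IDR list. In the pooled list their −log10 q values, larger for a more confident peak, ran from 0.0225 to 0.327, against 3.3 for the cux-7 peak. They were at most 0.534 in replicate 1 and 0.109 in replicate 2. The relaxed pooled list holds peaks and background as input for the IDR step, so these peaks alone do not show binding. Within 10 kb of the 2 genes the relaxed pooled list held 10 peaks, replicate 1 held 9 and replicate 2 held 6. Apart from the cux-7 peak their signals ran from 18.3 to 32.2 in the pooled list, from 10.3 to 21 in replicate 1 and from 9.4 to 11.6 in replicate 2. The cux-7 peak was 20.1-fold, 10.5-fold and 36.3-fold above the strongest of them, and it held 77.4%, 66.7% and 89% of the summed signal of the region in the pooled list, replicate 1 and replicate 2. Of the 9 other pooled peaks, 1 was matched within 200 bp in both replicates, 7 in replicate 1 alone and 1 in neither. Among the 7, overlapping lin-39 peaks of 23.6 and 18.9 matched the same replicate 1 peak. Over all 28811 weaker peaks of the pooled list, 26.5% were matched in both, 37.6% in replicate 1 alone, 24.6% in replicate 2 alone and 11.3% in neither.

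The weak peak seen in both replicates lay in an intron of cls-1, which encodes a CLASP protein that binds microtubules, at -11070 bp from the main summit. Its signal was 32.2 in the pooled list (rank 3480), 21 in replicate 1 (rank 2034) and 11.1 in replicate 2 (rank 13809). The body of lig-4 held a weak pooled peak in a coding exon (signal 18.3, rank 21372), matched in neither replicate, and another in an intron (18.8, rank 19948), matched in replicate 1. Replicate 2 alone had peaks at other places in lig-4, in a coding exon (9.5) and an intron (11.6). The Hox gene lin-39, which patterns the midbody, held a weak peak in a UTR and 3 in introns, with pooled signals from 18.3 to 23.6. The intron peaks of 23.6 and 18.9 overlapped. The intergenic stretch between lig-4 and lin-39 held pooled peaks of 18.3 and 20.9, both matched in replicate 1 alone. The gene clk-2, whose product is named for telomere length regulation, is also in the checkpoint list used below. It lies on the minus strand like cux-7 and starts 103 bp beyond the end of cux-7. The main summit lay 2325 bp upstream of the clk-2 start, outside its promoter window. In clk-2 each replicate had 1 weak coding-exon peak of its own (13.7 in replicate 1 and 9.4 in replicate 2), and the pooled list had none. The ncRNA genes C07H6.13, C07H6.11, C07H6.14 and C07H6.18 also lie within this distance. The next IDR summits on the chromosome lay 22263 bp to the left and 263579 bp to the right, where the median spacing of the 229 IDR peaks was 32988 bp.

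**Figure D3:**
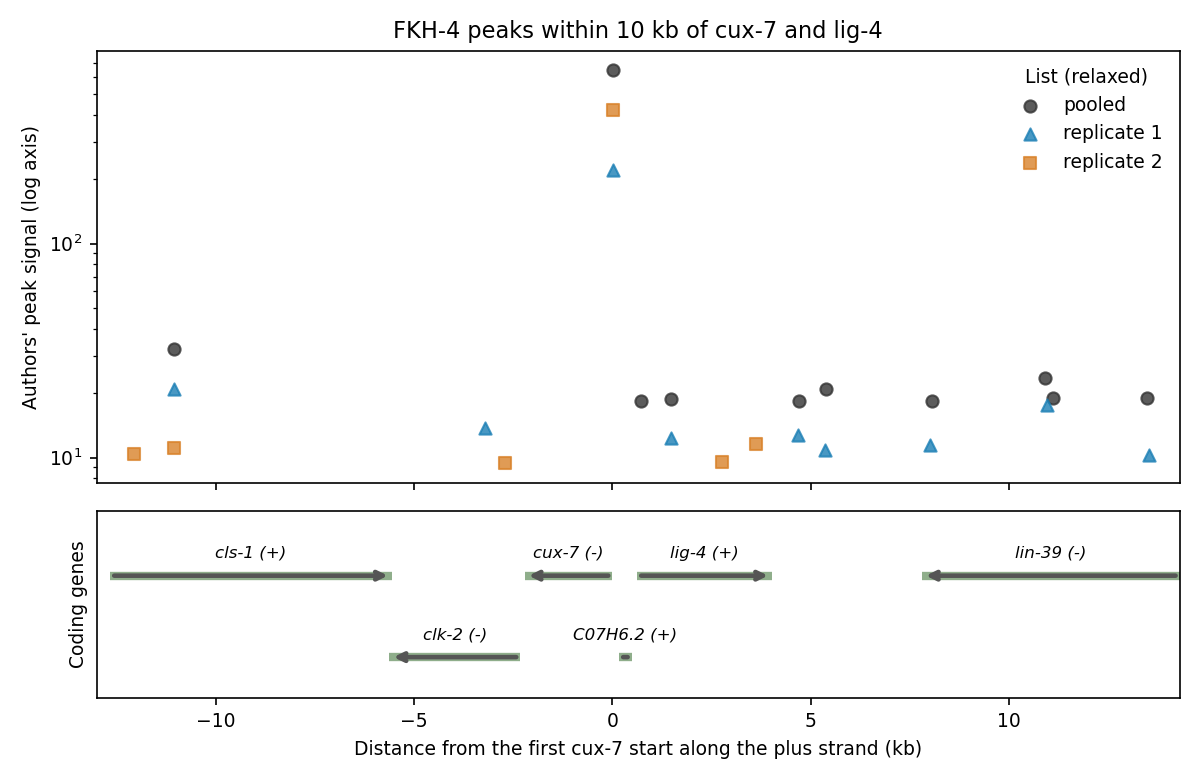
Upper panel: peaks with a summit within 10 kb of cux-7 and lig-4, as signal (log axis) against distance in kb from the first cux-7 start, for the relaxed pooled, replicate 1 and replicate 2 lists. Lower panel: coding genes with arrows in the direction of transcription, and lin-39 cut at the right edge. The peak beside cux-7 stands at 645, 221 and 423, and the other pooled peaks lie at or below 32.2.

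Words known for several transcription factor families were absent from the bases next to the summit. None of 10 words searched on both strands lay within 50 bp of the cux-7 summit. They were the forkhead word TGTTTAC, its variant forms TATTTAC along with TGTTTGC as well as TATTTGC, and the shorter forkhead word GACGC. The others were the E-box CACGTG, the E2F word TTCCCGC, the GATA word TGATAA, the GAGA repeat GAGAGA and the CCAAT box. A copy of TGTTTAC, which does not overlap either arm, began 68 bp to the right of the summit. Within 100 bp it was found at 27 of the IDR summits (2.27%) and at 663 of the other pooled summits (2.3%), so its share was near that of weak peaks. Within 50 bp GACGC was found at 21.4% of IDR summits against 7.45% of the other pooled summits, GAGAGA at 19.5% against 7.13% and TGTTTGC at 4.63% against 1.92%, and the cux-7 site had none of the 3. A match is a run of letters, and these words were not tested for binding. The 101 bases around the cux-7 summit had a GC content of 43.6%, near the IDR median of 44.6% and above the 35.7% of the whole chromosome.

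The inverted pair was found at few peaks, most of them strong. With at most 3 mismatches in each arm, an inverted pair within 100 bp of the summit was found at 6 of 1189 IDR peaks (0.505%) and at 1 of 28811 other pooled peaks (0.00347%). The median signal of these 6 peaks was 486, and 5 of them were among the 20 strongest. A single copy was found at 113 IDR peaks (9.5%, median signal 124) and at 1.25% of the other pooled peaks. The remaining 1070 IDR peaks (90%) had a median signal of 78.5. Since the word was chosen for its frequency in these peaks and the pair after the sequences had been seen, these medians are not tested against each other. Among the most alike peaks, F56G4.6, Y56A3A.7, W04C9.4 and F25H9.7 held a pair, with 32, 42, 40 and 38 bases between the arms, and F58D12.3 held none. The cux-7 pair had the widest spacing of these 5 pairs, at 50 bases. The pair at cux-7 was found only with 3 mismatches allowed, since its right arm has 3. With at most 2 mismatches in each arm the cux-7 site counted as a single copy, and 5 IDR peaks held a pair (0.421%). With at most 1 mismatch it was again a single copy, and 2 IDR peaks held a pair (0.168%).

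**Figure D4:**
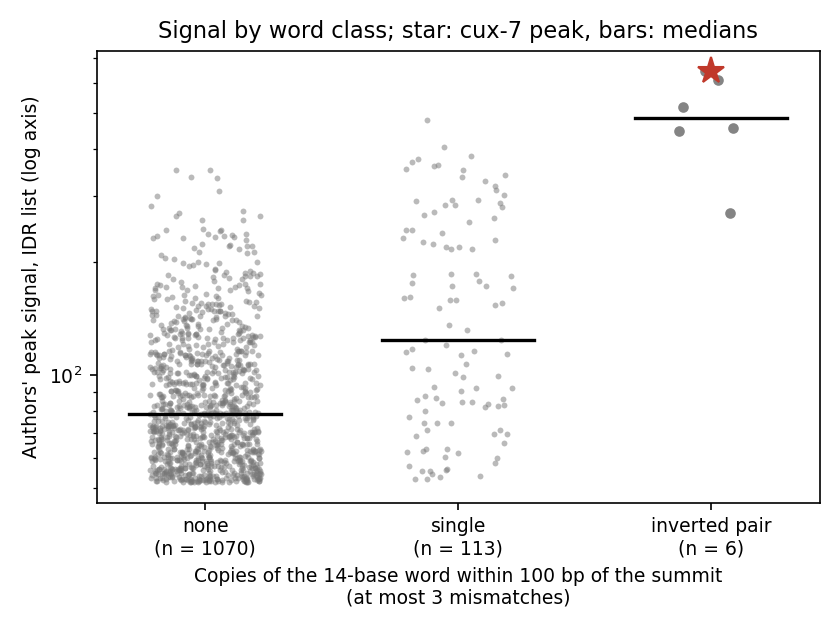
Each point is an IDR peak, with its signal on a log axis, grouped by copies of the 14-base word within 100 bp of the summit with at most 3 mismatches. Bars are medians (78.5 without a copy, 124 with a single copy and 486 with an inverted pair), and the star is the cux-7 peak at 645.

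The word CTAGGCCA, chosen after the sequence had been seen, lay from 8 to 15 bp to the right of the cux-7 summit, between the arms. Within 50 bp of the summit, on either strand, it was found at 73 IDR peaks (6.14%), 6 of the 20 strongest among them, and at 199 of the other pooled peaks (0.691%). Of the 5 most alike peaks 1 held it.

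The repair function of lig-4 raises the question of whether other genes of break repair and its checkpoint had an FKH-4 peak at their start. Of 38 listed genes, 6 had an IDR summit in the same promoter window (15.8%), where 953 of all 19973 coding genes had one (background 4.77%). Any peak of the relaxed pooled list was found at 21 of the 38 genes, against a background of 40.8% of all coding genes. That list also holds background regions, so a pooled peak outside the IDR list does not by itself show binding. lig-4 was itself chosen for its peak, and without it 5 of 37 genes had an IDR summit (13.5%). The list was chosen with earlier results known, and the difference from the background was not tested. On chromosome III, again without lig-4, 4 of 16 listed genes had an IDR summit, where 8.26% of all coding genes of that chromosome did. Elsewhere 1 of 21 listed genes had one, near the 4.24% of all coding genes there.

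In the end-joining list of 5 genes, lig-4 and polq-1 had an IDR summit. polq-1, which encodes the polymerase theta of an end-joining route that uses short homologies, had a weak one: its pooled signal was 54.5 (rank 1081), with 14.5 in replicate 1 and 41 in replicate 2, and the summit is shared with him-10. The summit lay 29 bp downstream of the polq-1 start, so the window of 500 bp upstream and 0 bp downstream left it out. No peak in the polq-1 promoter window was among the 1189 strongest of replicate 1. The genes of the Ku dimer that holds the broken ends differed in the weak list, where cku-80 had a pooled peak of 31.3 and cku-70 had none. The cku-80 peak was matched in replicate 2 alone. nhj-1, another end-joining gene, had a pooled peak of 23, matched in replicate 1 alone. The other DNA ligase gene, lig-1, whose product seals nicks in replication, had no peak in either list. The peak assigned to lig-4 was thus the only one of its list with a rank below 1000. Its summit is shared with cux-7 and C07H6.2, and lies nearest to cux-7. The window of 500 bp upstream and 0 bp downstream left out lig-4 as well as polq-1, so no end-joining gene had an IDR summit with it.

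Of 22 genes of resection and homologous recombination, mre-11 and brc-1 had an IDR summit. mre-11, a nuclease that trims broken ends, had a pooled signal of 58.2 (19.8 in replicate 1 and 38.9 in replicate 2), 95 bp upstream of its start, and shared the summit with wdr-5.3. It too was absent from the 1189 strongest peaks of replicate 1. brc-1, the BRCA1 homologue, had 52.2 (27.9 and 38.5), and its partner brd-1 had the strongest peak outside the IDR list, at 37.6. The mre-11 and brc-1 signals were near the lowest of the IDR list, 51.7.

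Of 10 checkpoint genes, mrt-2 and hpr-9 had an IDR summit, and both peaks were strong. mrt-2 and hpr-9 encode subunits of the ring-shaped clamp that signals DNA damage. The mrt-2 peak had a signal of 318 (rank 22), with 105 in replicate 1 and 211 in replicate 2, 125 bp upstream of the start. The hpr-9 peak had a signal of 302 (rank 25), with 93.1 in replicate 1 and 209 in replicate 2, and lay nearer to the start of lron-10. The gene of the remaining clamp subunit, hus-1, had no pooled peak, and neither did the promoter window of clk-2, which lies beside cux-7. Outside the IDR list hpr-17, which encodes a clamp loader subunit, had a pooled peak of 36, and the kinase gene chk-1 had 33.9. The hpr-17 peak was matched in replicate 1 alone. The chk-1 peak was matched in both, at rank 24476 in replicate 1 and rank 2077 in replicate 2.

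**Figure D5:**
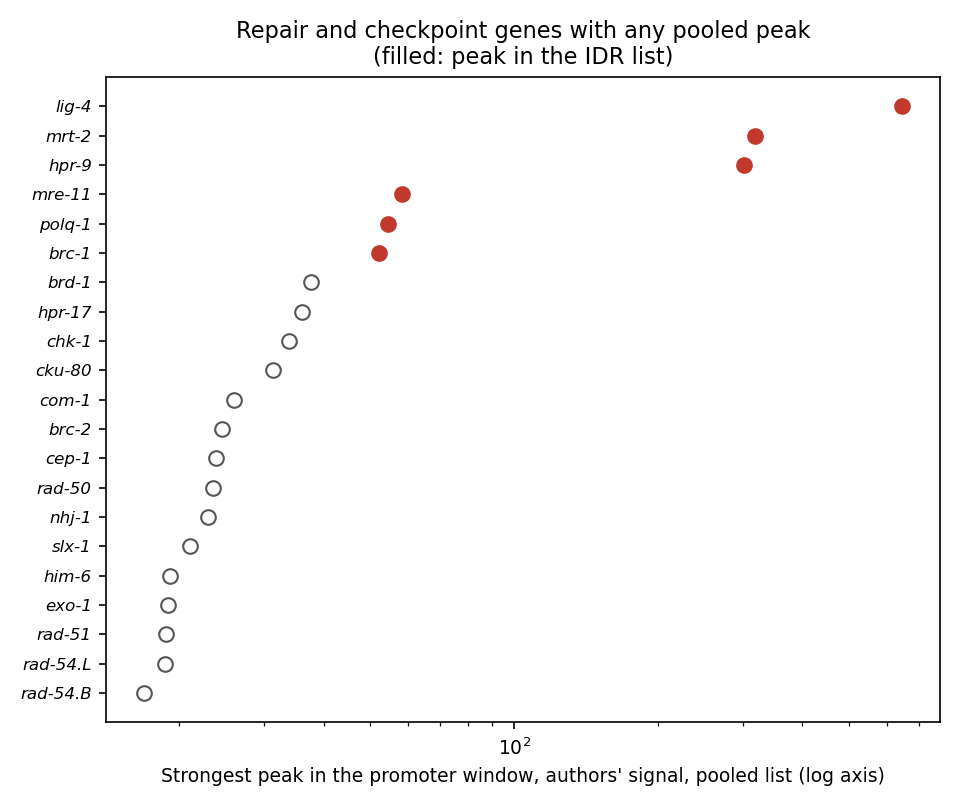
The 21 repair and checkpoint genes with any pooled peak in the promoter window, by the authors' signal of the strongest such peak (log axis), with filled points for the 6 genes whose peak is in the IDR list. lig-4 stands at 645, mrt-2 at 318 and hpr-9 at 302, and the rest lie at or below 58.2.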

How the data were processed

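Peaks of FKH-4 ChIP-seq in 2 replicates were read from lists the authors deposited on ce11 and ce10: relaxed lists for each replicate and for both pooled, and the list of the IDR step, which keeps peaks ranked alike in replicates. The relaxed pooled list is labelled as peaks and background for input to IDR. Per the file listings deposited with the samples, each replicate list was made against a control of another experiment, not analysed here. The signal of each peak and its −log10 q value are as the authors deposited them, and the p-value column holds a placeholder throughout. No source used here names the aligner, the peak caller, a version or the IDR threshold. Read depth is unknown.

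Positions are 1-based on ce11. Its chromosome III, of 13783801 bp, has the same length in WBcel235, whose Ensembl annotation (release 115) gave genes and coding starts and whose RefSeq annotation gave products. Peaks were ranked by signal, since 1005 pooled peaks tie at the highest −log10 q. Summits within 200 bp were matched. Words were searched on both strands. Scripts used Python 3.11.15, NumPy 2.4.6, SciPy 1.17.1 and matplotlib 3.10.9, and word search and assignment were checked on simulated data. Intervals cover counting error only. No test was run, since the peak's signal chose the genes.

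The members and lists were chosen with earlier results of these data known. Named are both genes, all genes within 10 kb, the genes nearest to the 5 most alike IDR peaks, the listed repair genes with an IDR summit and those with the strongest other peaks. lig-1, cku-70, cku-80, nhj-1, hus-1 and the genes sharing a summit were named after their values were seen, as were the 14-base word, its inverted pair and CTAGGCCA. Alternatives were the list, replicate, build, window, distance and assignment.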

Additional observations from a re-analysis of the deposited data

How the results depend on the processing

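The cux-7 peak ranked 1 in each replicate alone and in the ce10 IDR list, and its ratio to the next peak ran from 1.021 to 1.069. None of these settings tests the rank. The replicates make up the signal that chose the site, and the ce10 IDR list holds the same signal, 645. The pooled list also holds the same signal as the IDR list, and 1005 of 1189 IDR peaks tie at the highest q value. The summit lay 4 bp from the cux-7 start, 5 bp by the middle of the peak and 6 to 7 bp in single replicates, and, in an alternative chosen after seeing the data, 63 bp from the RefSeq start. The 10 pooled peaks within 10 kb became 6 within 5 kb, 19 within 20 kb, 1 in the IDR list and 6 to 9 in single replicates. The peak's share of signal within 20 kb was 60.9%. By the middle of the peaks the replicates stood 7 bp apart. Words matched 1 time within 100 bp and 1 time within 150 bp, and 0 times within 50 bp. The share of IDR peaks between divergent starts was 10% at 500 bp and 24.2% at 2000 bp. The share with an inverted pair was 0.421% at 2 mismatches and 0.168% at 1 mismatch, alternatives also chosen after seeing the data. In both the cux-7 site counted as a single copy. The repair count ran from 4 to 6 of 38 genes, and the share of all coding genes with a summit moved as well. With 500 bp upstream and 0 bp downstream the count was 4, beside 3.63% of all coding genes. With 2000 bp upstream and 500 bp downstream it was 6, beside 6.33%. By the nearest start alone it was 4 (5.36%), without replicate 1 it was 6 (4.88%) and without replicate 2 it was 5 (4.52%). lig-4 and polq-1 left the count with the window of 500 bp upstream and 0 bp downstream. lig-4 and hpr-9 left it when each peak went only to its nearest start. Without replicate 2, polq-1 and mre-11 left and hpr-17 entered. No paired analysis was possible because both samples belong to 1 group. Unknown read depth leaves the lower end of each list without a limit of detection.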

Other observations

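Inverted pairs of the 14-base word were also counted over the whole nuclear genome. Without mismatch the word had 175 copies there and formed 1 inverted pair, which had no pooled summit. With at most 3 mismatches in each arm 48 pairs were found, of which 6 had an IDR summit within 50 bp, 8 had any pooled summit and 40 had none. The 6 pairs with an IDR summit had from 26 to 50 bases between the arms, with cux-7 at the upper end. In that range lay 17 pairs, and the other 11 had no pooled summit. Among the 31 pairs with another spacing 0 had an IDR summit. Of 10 pairs in that range with at most 4 mismatches in both arms together, the number at cux-7, 6 had an IDR summit and 4 had no pooled summit. The range was read from the bound pairs after their values were seen, so these counts are a description, and the mappability of the unbound pairs was not tested.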
